A study of Homo sapiens with 15 samples.

Results

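Genes whose products mark mesenchymal cells or build the matrix around them were followed across RNA-seq libraries of LNCaP, a human prostate cancer cell line that responds to androgen and has epithelial character. The genes were VIM, CDH2, TWIST1, SNAI2, ZEB1, FN1, THBS1, SPARC, COL1A1 and COL3A1, that is, 10 of the 26443 genes with values. They were found by name in the deposited table of RPKM values (reads divided by gene-model length and library depth). A gene was kept when at least 1 library reached 1 RPKM, which kept 7 and dropped SNAI2, ZEB1 and CDH2. All 15 libraries came from LNCaP cells labelled wild type and infected for 4 to 5 days with lentivirus, 3 libraries per group. The hairpin groups were shPALI1, shG9a, shJarid2 and shsuz12, named for their targets PALI1, G9a, JARID2 and SUZ12, and the control group was pLKO, which the labels call control shRNA. The labels say neither how many hairpins were used per target nor whether the 3 replicates were separate cultures, so each p-value reflects only how these libraries vary, and that variation may be technical.

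SUZ12 is a core subunit of PRC2, the Polycomb complex that methylates histone H3 and keeps genes silent, and JARID2 and PALI1 are accessory proteins of that complex. G9a, encoded by EHMT2, methylates histone H3 on another lysine. In the epithelial-to-mesenchymal transition, epithelial cells loosen contacts made by E-cadherin and take on a migratory, matrix-making state. The transcription factors SNAI2, TWIST1 and ZEB1 repress epithelial genes in it, while vimentin (VIM) and N-cadherin (CDH2) are its best-known structural markers. Fibronectin, thrombospondin-1, SPARC and the fibrillar collagens are secreted proteins that fibroblasts, among other cells, make in tissue.

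The start-site windows of 4 of the genes are shown because these genes peaked under different hairpins or, for FN1, fell under shsuz12, and because the targeted proteins act on chromatin at promoters. Promoter windows of 300 bases, 250 before and 50 after the start, were found for 6 of the 10 genes in RefSeq sequence of GRCh38.p14. The windows are those of VIM (chr10:17227991-17228290, plus strand), FN1 (chr2:215436019-215436318, minus strand), THBS1 (chr15:39580829-39581128, plus strand) and SPARC (chr5:151686866-151687165, minus strand). Each is written 5′ to 3′ on the strand of its gene, and capitals mark the dinucleotide CG.
VIM: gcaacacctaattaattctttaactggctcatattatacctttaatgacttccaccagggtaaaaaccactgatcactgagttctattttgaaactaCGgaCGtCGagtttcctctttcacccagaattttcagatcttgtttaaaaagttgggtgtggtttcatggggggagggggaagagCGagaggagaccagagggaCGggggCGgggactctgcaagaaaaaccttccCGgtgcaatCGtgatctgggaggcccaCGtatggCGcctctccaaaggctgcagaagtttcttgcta
FN1: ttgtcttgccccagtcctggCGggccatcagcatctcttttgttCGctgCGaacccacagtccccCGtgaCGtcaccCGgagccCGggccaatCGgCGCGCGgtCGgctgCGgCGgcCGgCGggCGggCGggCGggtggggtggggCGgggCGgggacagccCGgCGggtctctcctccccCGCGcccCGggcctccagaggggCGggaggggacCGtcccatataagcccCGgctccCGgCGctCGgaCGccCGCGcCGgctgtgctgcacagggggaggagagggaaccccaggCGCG
THBS1: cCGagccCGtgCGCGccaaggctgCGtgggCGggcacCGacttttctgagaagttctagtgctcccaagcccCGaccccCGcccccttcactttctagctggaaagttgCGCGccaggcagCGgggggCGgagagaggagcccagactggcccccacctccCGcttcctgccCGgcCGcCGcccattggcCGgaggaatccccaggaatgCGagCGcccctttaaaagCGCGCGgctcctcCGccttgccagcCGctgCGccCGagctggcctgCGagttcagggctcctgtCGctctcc
SPARC: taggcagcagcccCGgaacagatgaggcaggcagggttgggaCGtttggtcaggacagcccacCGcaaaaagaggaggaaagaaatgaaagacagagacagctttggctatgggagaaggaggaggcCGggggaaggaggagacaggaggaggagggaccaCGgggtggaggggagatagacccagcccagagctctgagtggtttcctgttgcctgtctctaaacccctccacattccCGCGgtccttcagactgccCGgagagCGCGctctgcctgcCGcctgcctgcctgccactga

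The 4 windows differed in base composition. The FN1 window held 38 CG dinucleotides at a GC content of 76.7%, more CG than 90.1% of the 35114 promoter windows. THBS1 had 29 (GC 70.0%, more than 75.8% of windows). VIM had 10 (GC 48.0%, more than 43.6%) and SPARC had 11 (GC 61.3%, more than 45.3%), and the median over all windows was 14 CG and a GC content of 58.7%. Both strands were searched for 4 short motifs that do not overlap each other. GGAATG, the core letters bound by TEAD factors, lay in the THBS1 window at -46 to -41 from the start and, on the other strand as CATTCC, in the SPARC window at -17 to -12, and 14.0% of all windows held it. The E-box CAGGTG, the AP-1 site TGANTCA and the TATA box TATAAA were in 20.6%, 7.7% and 11.5% of all windows, and their letters were in none of the 4 windows printed. Among the windows not printed, window 2 of CDH2 held the TATA box and an AP-1 site. Windows 1 and 3 of ZEB1 held the E-box, and window 1 also held CATTCC. A match is only a run of letters in the window, not evidence of binding.

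Depth, worked out from the size of 1 read in the RPKM values of short RNA genes, was 10.56 to 19.36 M reads per library. The targeted genes were at 23.8% of the pLKO mean for C10orf12, the row that distinguishes PALI1, in shPALI1, 25.7% for EHMT2 in shG9a, 18.3% for JARID2 in shJarid2 and 12.5% for SUZ12 in shsuz12. The LCOR row, from the locus that also makes PALI1, was at 60% in shPALI1, and effects of the 2 cannot be told apart. Replicate 3 of shJarid2 stood apart, with r = 0.975 and 0.978 across genes against its own replicates, where all other replicate pairs had 0.986 to 0.992; results are given without it where it mattered. All 9 LNCaP markers used, among them KLK3 and EPCAM, were above 1 RPKM in each group. Their summed level was 896 to 1000 RPKM in shPALI1, 1090 to 1160 in shG9a, 1670 to 2000 in shJarid2 and 1370 to 1470 in shsuz12, against 2100 to 2320 in pLKO. Much of the sum was KLK3. Its mean was 300 RPKM in shPALI1, 364 in shG9a, 614 in shJarid2 and 594 in shsuz12, against 1110 in pLKO. EPCAM was higher than in pLKO under each hairpin in the limma test below. In that test 1 of the 9 markers was higher and 7 lower in shPALI1 (all tested genes 16.5% and 25.1%). In shG9a it was 2 and 6 (18.4% and 24.7%), in shJarid2 4 and 3 (23.8% and 27.2%) and in shsuz12 1 and 7 (21.1% and 32.8%). The 8 fibroblast markers summed to 0.291 to 0.31 RPKM in shPALI1, 0.173 to 0.309 in shG9a, 0.0765 to 0.125 in shJarid2 and 0.891 to 1.57 in shsuz12, against 0.236 to 0.357 in pLKO. POSTN was at 0 in each library, COL1A2, DCN, FAP and PDGFRA were at most at 0.058 RPKM, and THY1 and PDGFRB at most at 0.14 and 0.276. LUM was the exception, at 1.06 ± 0.37 RPKM in shsuz12, against 0.0362 ± 0.0057 in pLKO. The 8 immune markers summed to 4.28 to 5.1 RPKM in shPALI1, 3.14 to 4.01 in shG9a, 4.09 to 5.38 in shJarid2 and 2.78 to 3.43 in shsuz12, against 2.84 to 4.06 in pLKO, most of it CD68; PTPRC was at most at 0.018 RPKM and CD3E at 0. The 8 endothelial markers summed to 0.87 to 1.04 RPKM in shPALI1, 2.81 to 2.92 in shG9a, 1.34 to 1.61 in shJarid2 and 1.08 to 1.31 in shsuz12, against 1.08 to 1.35 in pLKO, most of it VWF; KDR was at most at 0.0274. In bulk RNA, fewer cells that make a transcript and less transcript per cell cannot be told apart.

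Differences were tested with limma on log2(RPKM + 1) over the 12715 genes with at least 1 RPKM in at least 3 libraries, with Benjamini-Hochberg adjustment over all of them and a threshold of 0.05. On this scale the change of a low gene is smaller than the ratio of its RPKM values. Of the 7 kept genes, 6 entered the test. SPARC reached 1 RPKM in 2 libraries only and did not. COL3A1 entered only through its 3 shPALI1 libraries, so that it had to be high there, and its calls in contrasts with shPALI1 are counted below as a description.

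Under each hairpin some of these genes were higher than in pLKO and others were lower. In shPALI1, 2 of 6 tested genes were higher than in pLKO (VIM and COL3A1), where 16.5% of all tested genes were higher, and 2 were lower (TWIST1 and COL1A1), where 25.1% were. In shG9a, 1 was higher (COL3A1; 18.4% of all genes) and 3 were lower (TWIST1, FN1 and THBS1; 24.7%). In shJarid2, 2 were higher (THBS1 and COL3A1; 23.8%) and 1 was lower (COL1A1; 27.2%). In shsuz12, 1 was higher (VIM; 21.1%) and 3 were lower (TWIST1, FN1 and THBS1; 32.8%). With 6 genes, counts of 1 to 3 do not set the genes apart from the table as a whole. The median change of the 6 genes was 0.10 in shPALI1, -0.19 in shG9a, -0.12 in shJarid2 and -0.43 in shsuz12, beside -0.052, -0.040, -0.038 and -0.078 over all tested genes. The 4 comparisons share the pLKO libraries. With rescaling to a common sum, calls over all genes turned to 3173 higher and 2296 lower in shG9a, in place of 2338 and 3139, and to 3483 and 3049 in shsuz12, in place of 2683 and 4171. Smaller moves also turned the majority to 3514 higher and 3056 lower in shJarid2 with median ratio scaling, in place of 3024 and 3462, and to 2930 and 2917 in shG9a with quantile normalization. Rescaling to a common sum moved the median of all genes by 0.095 in shG9a and 0.109 in shsuz12.

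**Figure D1:**
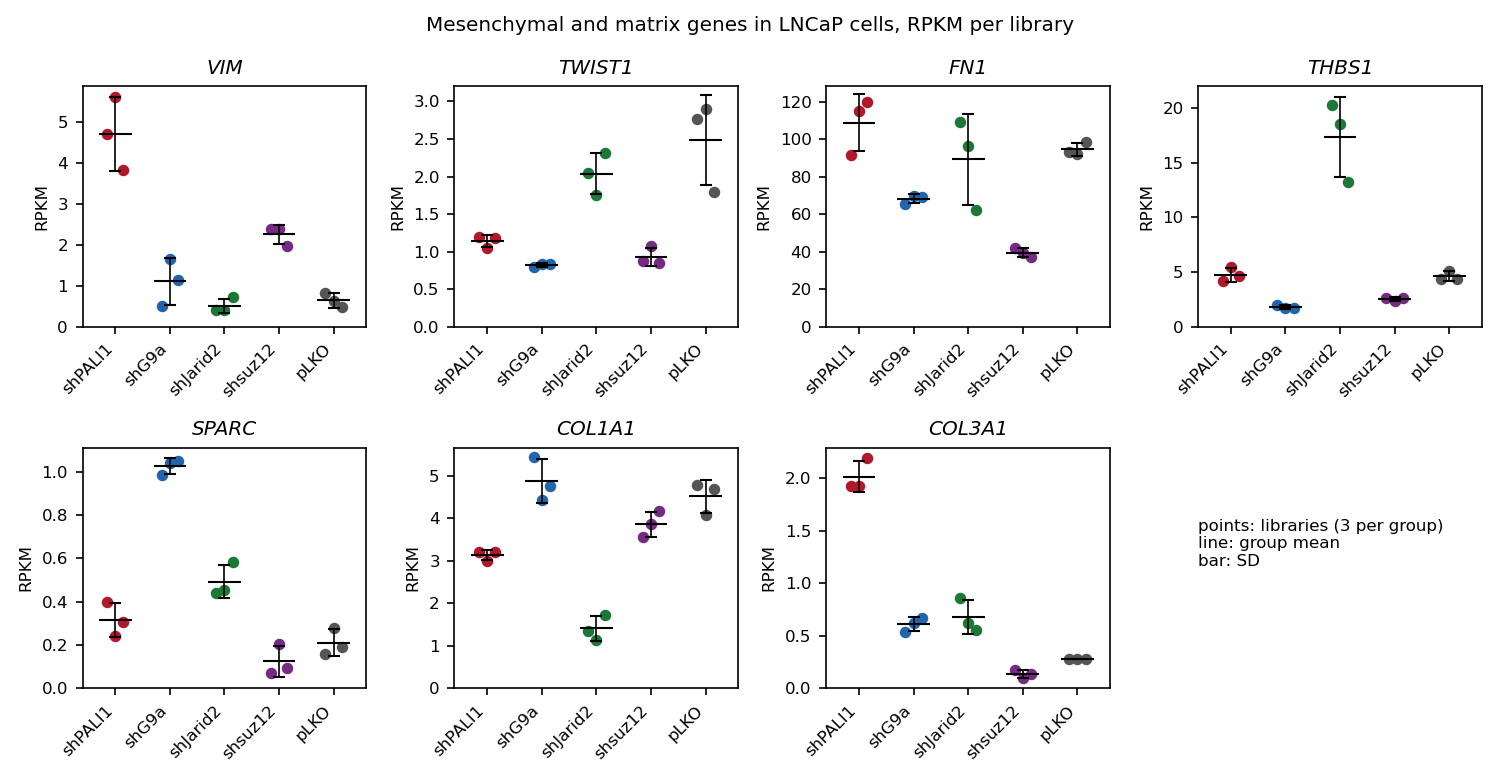
RPKM of the 7 kept genes in each library (points), by group on the x axis, with the group mean (line) and SD (bar), n = 3 per group; each y axis starts at 0. VIM and COL3A1 are highest in shPALI1, THBS1 in shJarid2 and SPARC in shG9a, while TWIST1 is lowest in shG9a and COL1A1 in shJarid2.

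VIM encodes vimentin, the intermediate filament protein of mesenchymal cells, and lies at chr10:17228259-17237593 on the plus strand. It rose under shPALI1 and shsuz12. VIM had 4.70, 5.62 and 3.82 RPKM in shPALI1 (106, 165 and 112 reads), 0.516, 1.66 and 1.14 in shG9a, 0.414, 0.414 and 0.714 in shJarid2 and 2.39, 2.39 and 1.98 in shsuz12 (99, 69 and 51 reads), against 0.833, 0.617 and 0.482 in pLKO (22, 21 and 12 reads). Every shPALI1 library lay above every shsuz12 library, and both groups lay above all pLKO libraries, whereas shG9a and shJarid2 overlapped pLKO. The mean was 4.71 ± 0.90 RPKM in shPALI1 (SD, n = 3), 7.31-fold that of pLKO at 0.644 ± 0.18, with a log2 change of 1.79 ± 0.18 (SE, limma, adjusted p = 2.6e-06). In shsuz12 the mean of 2.26 ± 0.24 RPKM was 3.5-fold that of pLKO (log2 change 0.99 ± 0.18, limma, adjusted p = 0.00033).

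Set against each other, shPALI1 exceeded shsuz12 in VIM by 0.80 on the log2 scale (limma, adjusted p = 0.0015), and shsuz12 exceeded shG9a (0.66 in size, adjusted p = 0.0073). The shG9a mean of 1.11 ± 0.57 RPKM did not pass against pLKO (log2 change 0.33, 95% interval -0.06 to 0.71, adjusted p = 0.16), but without shG9a replicate 1, its lowest library, the change was 0.54 and passed (limma, adjusted p = 0.0142). For shJarid2 against pLKO the interval was -0.50 to 0.26. VIM thus ran in the order shPALI1, shsuz12, shG9a, pLKO, shJarid2, and the last 3 were not separated in tests of neighbours. In shsuz12 the fibroblast marker sum was also above that of pLKO, through LUM at 0.667 to 1.40 RPKM; its part in the VIM result was not tested. In shPALI1, where VIM was highest, that sum was 0.291 to 0.31 RPKM, within the range of the pLKO libraries; the immune sum was above that of pLKO there, and its part was not tested.

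Of the reads counted for VIM, some may come from the opposite strand, since no label says that the libraries kept strand. The antisense gene VIM-AS1 shares 641 exonic bases with VIM in GENCODE v29 and was at most at 0.345 RPKM in any library. By pattern across the 15 libraries, FBXO46 (Pearson r = 0.968), CYR61 (0.958) and SBK1 (0.950) were most like VIM, as a description on log2(RPKM + 1) over 10543 genes.

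CDH2 encodes N-cadherin, the cadherin that often takes the place of E-cadherin in mesenchymal cells. It was all but missing in LNCaP, with 5 reads in total, 1 in shPALI1 replicate 2 and 4 in shsuz12 replicate 2, and 0 reads in the other 13 libraries. A count of 0 over the 3 pLKO libraries allows a level of up to 0.0169 RPKM (3 reads over the group; counting error only). At this depth no difference in CDH2 was detectable.

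TWIST1 encodes a basic helix-loop-helix factor that drives the transition, and lies at chr7:19020991-19117672 on the minus strand. It fell under shPALI1, shG9a and shsuz12. TWIST1 had 1.19, 1.05 and 1.18 RPKM in shPALI1 (21, 24 and 27 reads), 0.794, 0.829 and 0.837 in shG9a, 2.05, 1.76 and 2.31 in shJarid2 and 0.868, 1.07 and 0.848 in shsuz12 (28, 24 and 17 reads), against 2.77, 2.90 and 1.80 in pLKO (57, 77 and 35 reads). All libraries of shPALI1, shG9a and shsuz12 lay below the lowest pLKO library, and only shJarid2 overlapped pLKO.

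The TWIST1 mean was 1.14 ± 0.081 RPKM in shPALI1, 45.8% of the pLKO mean of 2.49 ± 0.60 (SD, n = 3 each; log2 change -0.69 ± 0.12, limma, adjusted p = 0.00035). It was 32.9% of pLKO in shG9a (log2 change -0.92, adjusted p = 2.6e-05) and 37.2% in shsuz12 (-0.84, adjusted p = 3.7e-05). In shJarid2 TWIST1 was at 81.9% and did not pass (-0.19, interval -0.44 to 0.06, adjusted p = 0.20); without pLKO replicate 3, the lowest control, it did (-0.34, limma, adjusted p = 0.0133). Between the 3 groups in which it fell, no difference passed: shPALI1 against shG9a was 0.23 (interval -0.02 to 0.49), shPALI1 against shsuz12 0.15 (-0.10 to 0.41) and shG9a against shsuz12 -0.08 (-0.33 to 0.17). Each of the 3 lay below shJarid2, by log2 changes of -0.50 (shPALI1, adjusted p = 0.002), -0.74 (shG9a, adjusted p = 0.00012) and -0.66 (shsuz12, adjusted p = 0.00028, limma). TWIST1 and VIM therefore moved in opposite directions under shPALI1 and shsuz12. The genes most like TWIST1 in pattern were ANP32B (r = 0.948), MPI (0.945) and BAMBI (0.943).

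SNAI2 encodes the zinc-finger repressor SLUG. It never passed 0.657 RPKM and held 3 to 19 reads per library. SNAI2 had 0.629, 0.621 and 0.657 RPKM in shPALI1 (14, 18 and 19 reads), against 0.192, 0.328 and 0.407 in pLKO (5, 11 and 10 reads). The 3 shPALI1 libraries lay above every pLKO library, whereas the other hairpin groups overlapped pLKO, with 0.199 to 0.418 in shG9a, 0.0899 to 0.29 in shJarid2 and 0.392 to 0.491 in shsuz12. In a fit with no filter on low values, SNAI2 passed in shPALI1 with a log2 change of 0.32 ± 0.078 (limma, adjusted p = 0.0081), and the smallest adjusted p of the other hairpins was 0.17, in shsuz12.

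ZEB1 encodes a zinc-finger repressor of E-cadherin. It held 16 reads over the 15 libraries, 0 to 3 in each, and at most 0.0309 RPKM. ZEB1 was at 0 reads in all shJarid2 libraries, which allows up to 0.0109 RPKM, and in 2 shPALI1 libraries and 1 pLKO library. Its antisense neighbour ZEB1-AS1, which shares 366 exonic bases with it, was at 1.68 to 3.95 RPKM, so that even the few ZEB1 reads may belong to the other strand.

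**Figure D2:**
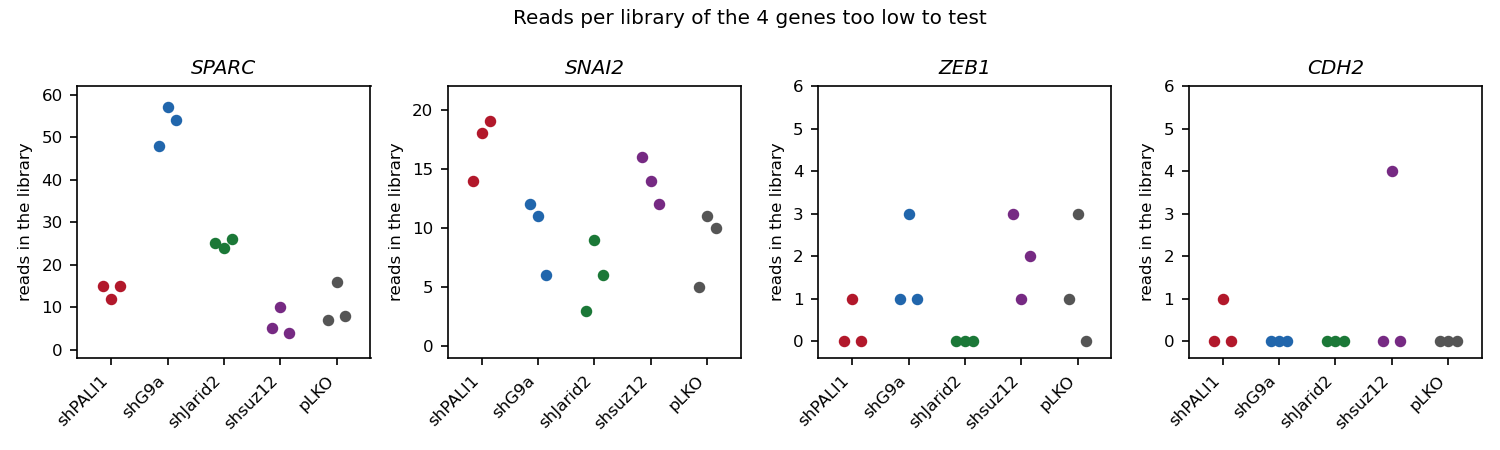
Reads per library (y axis, from 0) of SPARC, SNAI2, ZEB1 and CDH2 by group, 1 point per library, n = 3 per group, recovered from the RPKM values. SPARC holds 48 to 57 reads in shG9a against 7 to 16 in pLKO, SNAI2 14 to 19 in shPALI1 against 5 to 11 in pLKO, and ZEB1 and CDH2 stay at 0 to 4.

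FN1 encodes fibronectin, the adhesive matrix glycoprotein bound by integrins, and lies at chr2:215360440-215436172 on the minus strand. With 4023 to 15548 reads per library it was by far the most abundant of the 10 genes and more abundant than 97.9% of all genes. FN1 fell under shsuz12 and, less firmly, under shG9a. It had 91.6, 115 and 120 RPKM in shPALI1, 65.4, 69.8 and 69.4 in shG9a, 109, 96.2 and 62.4 in shJarid2 and 42.0, 39.1 and 37.2 in shsuz12, against 93.4, 92.0 and 98.7 in pLKO. The shsuz12 libraries were the lowest of all and the shG9a libraries lay below every pLKO library, while shPALI1 and shJarid2 straddled pLKO.

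In shsuz12 the FN1 mean of 39.4 ± 2.4 RPKM was 41.6% of the pLKO mean of 94.7 ± 3.5 (SD, n = 3 each; log2 change -1.24 ± 0.16, limma, adjusted p = 1.4e-05). In shG9a it was 68.2 ± 2.5 RPKM, 72% of pLKO (-0.47 ± 0.16, adjusted p = 0.026). That shG9a call was lost without a filter (limma, adjusted p = 0.0537), with rescaling to a common sum (0.174), with quantile normalization (0.168) and on leaving out any 1 of the 6 libraries (0.0516 to 0.076). For shPALI1 the change was 0.19 (interval -0.15 to 0.52, adjusted p = 0.35). For shJarid2 it was -0.12 (-0.46 to 0.21, adjusted p = 0.54) with all libraries and 0.11 (limma, adjusted p = 0.35) without shJarid2 replicate 3, whose 62.4 RPKM stood far below the other shJarid2 libraries. FN1 in shPALI1 was higher than in shG9a (0.66, adjusted p = 0.0031) and than in shsuz12 (1.43, limma, adjusted p = 3.1e-06), and shG9a was higher than shsuz12 (0.78, adjusted p = 0.001). Neighbours in the order shPALI1, pLKO, shJarid2, shG9a were not separated, and shsuz12 lay below. The step between shG9a and shJarid2 was -0.35 (adjusted p = 0.074) and passed without shJarid2 replicate 3 (-0.58, limma, adjusted p = 0.000221). IARS (r = 0.980) and FNDC3A (0.976) followed FN1 closely.

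THBS1 encodes thrombospondin-1, a matrix protein that activates latent TGF-beta and restrains angiogenesis, and lies at chr15:39581079-39599466 on the plus strand. It rose under shJarid2 and fell under shG9a and shsuz12. THBS1 had 4.13, 5.44 and 4.6 RPKM in shPALI1, 2.0, 1.66 and 1.70 in shG9a, 20.3, 18.5 and 13.2 in shJarid2 (2325, 1973 and 1195 reads) and 2.64, 2.37 and 2.59 in shsuz12, against 4.40, 5.13 and 4.37 in pLKO (394, 592 and 369 reads). Each shJarid2 library was above all 12 others, shG9a and shsuz12 lay below pLKO, and shPALI1 overlapped it.

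Under shJarid2 the THBS1 mean of 17.4 ± 3.7 RPKM was 3.74-fold that of pLKO at 4.63 ± 0.43 (SD, n = 3 each; log2 change 1.69 ± 0.13, limma, adjusted p = 1.3e-07), and the change was 1.86 without shJarid2 replicate 3 (adjusted p = 8.64e-09). It was 38.6% of pLKO in shG9a (-1.01, adjusted p = 2.6e-05) and 54.7% in shsuz12 (-0.67, adjusted p = 0.00056). In shPALI1 it was at 102% (0.02, interval -0.26 to 0.30). Among the 10 comparisons THBS1 passed in 9, the exception being shPALI1 against pLKO. On the log2(RPKM + 1) scale, the widest gap of any of the 6 genes between hairpins was that of THBS1 in shG9a against shJarid2, at -2.70 (limma, adjusted p = 1.3e-09). As a ratio of group means it was 9.7, below the ratio of 15.1 for COL3A1 in shPALI1 over shsuz12. Between shG9a and shsuz12 the change was -0.34 (adjusted p = 0.043), a call lost under 7 of 16 alternatives. FSIP1 on the opposite strand shares 448 exonic bases with THBS1 and was at 0.387 to 1.61 RPKM, so that its reads cannot be fully told from those of THBS1 at the low levels. C5orf30 (r = 0.985), GULP1 (0.983) and NAMPT (0.981) were nearest to THBS1 in pattern.

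SPARC encodes osteonectin, a secreted protein that binds collagen and calcium, and lies at chr5:151661096-151687165 on the minus strand. It stood just inside the 1 RPKM limit. SPARC had 0.396, 0.243 and 0.304 RPKM in shPALI1, 0.982, 1.04 and 1.05 in shG9a (48, 57 and 54 reads), 0.44, 0.455 and 0.582 in shJarid2 (25, 24 and 26 reads) and 0.0719, 0.206 and 0.0926 in shsuz12 (5, 10 and 4 reads), against 0.158, 0.28 and 0.191 in pLKO (7, 16 and 8 reads). The shG9a libraries were the highest of all, shJarid2 also lay above pLKO, and shPALI1 and shsuz12 overlapped it. The mean in shG9a, 1.03 ± 0.038 RPKM, was 4.89-fold that of pLKO at 0.21 ± 0.063 (SD, n = 3 each), and that in shJarid2, 0.492 ± 0.078 RPKM, was 2.35-fold. In the fit with no filter, the log2 change of SPARC in shG9a was 0.74 ± 0.06. It is given without a p, because only shG9a libraries brought SPARC past the 1 RPKM rule. In the same fit SPARC passed in shJarid2 (0.30 ± 0.06, limma, adjusted p = 0.002). It did not pass in shPALI1 (0.12, limma, adjusted p = 0.19) or shsuz12 (-0.11, adjusted p = 0.22). SPARC was high in shG9a while the fibroblast marker sum there, 0.173 to 0.309 RPKM, was no higher than in pLKO. The endothelial sum was above pLKO in shG9a through VWF (2.33 to 2.38 RPKM, against 0.69 to 0.96 in pLKO), and its part in the SPARC result was not tested.

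COL1A1 encodes the alpha-1 chain of type I collagen and lies at chr17:50183289-50201632 on the minus strand. It fell under shJarid2 and, by less, under shPALI1. COL1A1 had 3.20, 2.99 and 3.21 RPKM in shPALI1 (200, 244 and 261 reads), 5.45, 4.44 and 4.77 in shG9a, 1.35, 1.14 and 1.73 in shJarid2 (127, 99 and 128 reads) and 3.57, 3.86 and 4.16 in shsuz12, against 4.79, 4.08 and 4.68 in pLKO (351, 385 and 323 reads). All shJarid2 libraries were below all others, shPALI1 was below pLKO with no overlap, and shG9a and shsuz12 overlapped pLKO.

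The COL1A1 mean was 1.41 ± 0.30 RPKM in shJarid2, 31.2% of the pLKO mean of 4.52 ± 0.38 (SD, n = 3 each; log2 change -1.20 ± 0.098, limma, adjusted p = 2.5e-07), and -1.30 without shJarid2 replicate 3. It was 3.13 ± 0.12 RPKM in shPALI1, 69.4% of pLKO (-0.41 ± 0.098, adjusted p = 0.0039). For shG9a the change was 0.09 (interval -0.12 to 0.30, adjusted p = 0.47) and for shsuz12 -0.18 (-0.39 to 0.03, adjusted p = 0.14). In the order shG9a, pLKO, shsuz12, shPALI1, shJarid2, only the last step passed between neighbours (0.79 for shPALI1 against shJarid2, limma, adjusted p = 8.7e-06). The step from shPALI1 to shsuz12 was -0.23 (adjusted p = 0.057) and passed under 6 alternatives. COL1A2, whose chain joins COL1A1 in type I collagen, was at 0 to 0.0269 RPKM throughout. ADCK1 (r = 0.968), NLGN2 (0.964) and MROH6 (0.961) were most like COL1A1.

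COL3A1 encodes the chain of type III collagen and lies at chr2:188974320-189012746 on the plus strand. It had 1.93, 1.93 and 2.19 RPKM in shPALI1 (112, 146 and 165 reads), 0.535, 0.623 and 0.673 in shG9a, 0.863, 0.619 and 0.556 in shJarid2 and 0.169, 0.0943 and 0.136 in shsuz12 (18, 7 and 9 reads), against 0.28, 0.274 and 0.281 in pLKO (19, 24 and 18 reads). None of the hairpin groups overlapped pLKO, 3 being above it and shsuz12 below. The shPALI1 mean of 2.02 ± 0.15 RPKM was 7.24-fold that of pLKO at 0.279 ± 0.0037 (SD, n = 3 each; log2 change 1.24 ± 0.094). Its contrasts with shPALI1 are given without a p, because those libraries let it into the test.

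COL3A1 was also higher than pLKO in shG9a, at 2.19-fold (0.33 ± 0.094, adjusted p = 0.011), and in shJarid2, at 2.44-fold (0.39 ± 0.094, limma, adjusted p = 0.0031). Those groups were not separated from each other (-0.06, interval -0.26 to 0.14) and both lay below shPALI1, which exceeded shG9a by 0.91 and shJarid2 by 0.85. In shsuz12 COL3A1 was at 0.478 of the pLKO mean, a ratio that did not pass on the main scale (-0.17, adjusted p = 0.13) but did with a pseudocount of 0.1 (-0.71, limma, adjusted p = 0.0212), with quantile normalization (-0.32, 0.00765) and in limma-voom on the recovered reads (-1.03, 0.0116). In shPALI1 both COL3A1 and VIM were higher than in pLKO, whereas in shsuz12 VIM was higher and COL3A1 did not pass. RIPK2 (r = 0.983), PRAC1 (0.955) and FZD3 (0.952) were most like COL3A1.

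**Figure D3:**
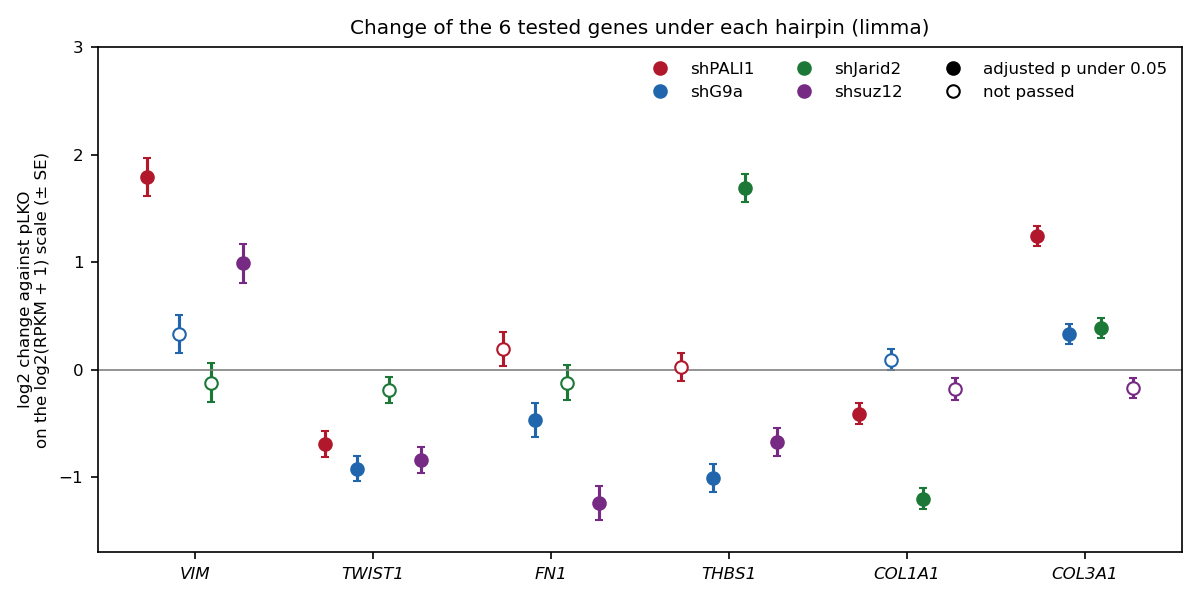
Change against pLKO on the log2(RPKM + 1) scale (y axis) of the 6 tested genes (x axis) under each hairpin, with the SE as bars; filled points passed at an adjusted p under 0.05 in limma and open points did not. TWIST1 is below 0 under all 4 hairpins, open under shJarid2, while THBS1 runs from -1.01 in shG9a to 1.69 in shJarid2.

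Each contrast of 2 hairpin groups compares their means without the pLKO mean, although the pLKO libraries share in the estimate of the spread and in the filter. With the 6 libraries of a contrast alone, VIM between shG9a and shJarid2 lost its call (limma, adjusted p = 0.121) and COL1A1 between shPALI1 and shsuz12 gained one (0.0298). Of the 6 tested genes, 5 passed between shPALI1 and shG9a (48.2% of all tested genes), 5 between shPALI1 and shJarid2 (62.3%), 4 between shPALI1 and shsuz12 (55.9%), 4 between shG9a and shJarid2 (55.8%), 5 between shG9a and shsuz12 (45.6%) and 6 between shsuz12 and shJarid2 (59%). COL3A1 is 1 of the genes counted in each of the 3 contrasts with shPALI1. Over all 10 comparisons VIM passed in 8, COL1A1 in 7, and FN1 and TWIST1 in 6, and COL3A1 was called in 8, of which 4 were contrasts with shPALI1. Between shsuz12 and shJarid2, which target proteins of the same complex, VIM was 1.11 higher in shsuz12 (adjusted p = 1e-04) and COL1A1 1.02 higher (limma, adjusted p = 8.7e-07). FN1 was -1.12 (adjusted p = 3e-05), THBS1 -2.36 (3.4e-09), TWIST1 -0.66 (0.00028) and COL3A1 -0.56 (0.00014, limma) in the same contrast, that is, lower in shsuz12. Between shPALI1 and shG9a, VIM, FN1, THBS1 and COL3A1 were higher in shPALI1 and COL1A1 was lower (-0.51, adjusted p = 0.00067). VIM between shG9a and shJarid2 (0.45, limma, adjusted p = 0.046) lost its call under 8 of 15 alternatives, and COL1A1 between shG9a and shsuz12 (0.27, limma, adjusted p = 0.035) under 8 of 16.

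The counts of called genes in the lists that follow stand beside the shares of all tested genes that were higher and lower than pLKO, which were 16.5% and 25.1% in shPALI1, 18.4% and 24.7% in shG9a, 23.8% and 27.2% in shJarid2, and 21.1% and 32.8% in shsuz12. Lists were not tested as sets, and nothing particular to a list is read from its count. Of 14 other regulators of the transition, which include inducers such as SNAI1 and TCF3 and suppressors such as ESRP1, ESRP2, GRHL2, OVOL1 and OVOL2, 8 were tested. Among the rest, TWIST2 and PRRX1 were listed at 0 in every library, ZEB2 was at most at 0.00634, FOXC2 at 0.0437, KLF8 at 0.215 and TCF4 at 0.268 RPKM. In shPALI1, 1 of the 8 was higher and 2 were lower, in shG9a 0 and 1, in shJarid2 3 and 3, and in shsuz12 1 and 4, with medians of -0.10, -0.08, -0.04 and -0.25. With quantile normalization the shsuz12 split was 2 and 1, beside 3431 higher and 3558 lower over all tested genes. SNAI1, which encodes the repressor SNAIL, was at 1.77 ± 0.26 RPKM in shPALI1, 0.699 ± 0.21 in shG9a, 1.15 ± 0.27 in shJarid2 and 0.894 ± 0.041 in shsuz12, against 1.98 ± 0.46 in pLKO (SD, n = 3 each). It was the largest fall of the list in 3 groups, with log2 changes of -0.81 in shG9a (adjusted p = 0.00023), -0.47 in shJarid2 (0.0089) and -0.64 in shsuz12 (0.00094, limma), and did not pass in shPALI1 (-0.10, adjusted p = 0.56). ESRP2, an epithelial splicing regulator, fell in shPALI1 (24.9 ± 0.53 RPKM, against 37.4 ± 2.0 in pLKO; -0.57, limma, adjusted p = 1e-05). It also fell in shJarid2 (-0.19, adjusted p = 0.025) and shsuz12 (-0.25, 0.0046) and did not pass in shG9a (-0.10, limma, adjusted p = 0.25). The other suppressors went both ways. In shJarid2 ESRP1 (0.34, adjusted p = 0.00059), GRHL2 (0.33, 0.0023) and OVOL1 (0.43, 0.0049, limma) rose. In shsuz12 OVOL1 rose (0.55, adjusted p = 0.00078), and GRHL2 (-0.26, 0.0094) and OVOL2 (-0.38, 0.019, limma) fell. OVOL2 also fell in shPALI1 (-0.51, limma, adjusted p = 0.0045).

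TGF-beta signalling is the best-known inducer of the transition and of collagen genes. Of 23 listed genes 15 were tested, of which 2 were higher and 5 lower in shPALI1, 3 and 5 in shG9a, 2 and 4 in shJarid2, and 3 and 2 in shsuz12. BAMBI, a decoy receptor that dampens the pathway, was the largest fall in 3 of the groups, at 25.0 ± 1.1 RPKM in shPALI1 (-0.85, adjusted p = 1.5e-06), 14.6 ± 0.67 in shG9a (-1.59, 5.4e-09) and 18.3 ± 1.3 in shsuz12 (-1.29, 2.3e-08), against 46.0 ± 2.2 in pLKO (SD, n = 3 each, limma). It also fell in shJarid2, by 0.42 on the log2 scale (adjusted p = 0.00051). The activin receptor gene ACVR1B rose in shG9a (0.89, adjusted p = 2.4e-06), shJarid2 (0.54, 0.00015) and shsuz12 (0.92, 1.1e-06) and fell in shPALI1 (-0.29, limma, adjusted p = 0.015).

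Among 23 other collagen genes 9 were tested; 3 were higher and 2 lower in shPALI1, 0 and 1 in shG9a, 2 and 1 in shJarid2, and 4 and 0 in shsuz12. COL5A2, a chain of the type V collagen of fibrils, had the largest rise in shPALI1 (4.15 ± 0.28 RPKM, against 0.913 ± 0.14 in pLKO; 1.43, adjusted p = 4.9e-08) and in shJarid2 (2.28 ± 0.34 RPKM; 0.77, limma, adjusted p = 1.1e-05). Of 40 matrix glycoproteins and proteoglycans 13 were tested, 3 higher and 6 lower in shPALI1, 4 and 3 in shG9a, 2 and 5 in shJarid2, and 5 and 2 in shsuz12. CYR61, a matricellular protein of the CCN family whose pattern was among the 3 nearest to VIM, was at 15.5 ± 1.6 RPKM in shPALI1, 4.26 ± 0.27 in shG9a, 2.79 ± 0.31 in shJarid2 and 7.20 ± 0.20 in shsuz12, against 2.59 ± 0.33 in pLKO. CYR61 passed in shPALI1 (2.20, adjusted p = 7.1e-10), shG9a (0.55, 0.00024) and shsuz12 (1.19, limma, adjusted p = 1.2e-07), and did not in shJarid2 (0.08, adjusted p = 0.50). The laminin chain gene LAMC1 fell in shPALI1 (58.2 ± 3.8 RPKM, against 125 ± 6.2 in pLKO; -1.09, adjusted p = 5.6e-05) and in shG9a (55.4 ± 1.1 RPKM; -1.16, limma, adjusted p = 3.2e-05), and did not pass in shJarid2 (0.08, adjusted p = 0.68) or shsuz12 (0.01, 0.96).

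Genes that fold, secrete and crosslink collagen had 14 tested of 22 listed, 1 higher and 4 lower in shPALI1, 6 and 2 in shG9a, 5 and 3 in shJarid2, and 9 and 1 in shsuz12, where the median change was 0.50. With quantile normalization the shPALI1 split was 4 and 4, beside 2787 higher and 2887 lower over all tested genes. SEC23A, which encodes a coat protein needed to export procollagen, fell in shG9a (18.5 ± 0.44 RPKM; -0.87, adjusted p = 1.5e-05) and in shsuz12 (11.9 ± 1.0 RPKM; -1.46, limma, adjusted p = 7.2e-08), against 34.6 ± 3.3 in pLKO, and did not pass in shPALI1 (0.17, adjusted p = 0.20) or shJarid2 (0.24, 0.066). BMP1, the procollagen C-proteinase, rose in shsuz12 (9.93 ± 0.43 RPKM, against 4.79 ± 0.62 in pLKO; 0.92, limma, adjusted p = 1.2e-06). It fell in shG9a (-0.54, adjusted p = 0.00026) and shJarid2 (-0.58, 8.2e-05) and did not pass in shPALI1 (0.05, limma, adjusted p = 0.67). Of 26 integrins and other matrix receptors 19 were tested, 5 higher and 3 lower in shPALI1, 8 and 6 in shG9a, 4 and 8 in shJarid2, and 8 and 2 in shsuz12. With rescaling to a common sum the shG9a split was 8 and 3, beside 3173 higher and 2296 lower over all tested genes. DDR1, a collagen receptor kinase, rose in shG9a (0.92, adjusted p = 1.5e-06), shJarid2 (0.93, 6.8e-07) and shsuz12 (1.42, 1.5e-08) and did not pass in shPALI1 (0.11, limma, adjusted p = 0.31). ITGA5, the fibronectin receptor chain, rose under each hairpin, by 0.30 in shPALI1 (adjusted p = 0.0055), 0.93 in shG9a (3.5e-07), 0.49 in shJarid2 (8.3e-05) and 1.28 in shsuz12 (1.2e-08, limma). ITGA1, a collagen receptor chain, was at 1.8 ± 0.18 RPKM in shPALI1, 0.795 ± 0.11 in shG9a, 0.12 ± 0.017 in shJarid2 and 0.216 ± 0.065 in shsuz12, against 0.157 ± 0.082 in pLKO; it entered the test only through its shPALI1 libraries, so its level there is a description.

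**Figure D4:**
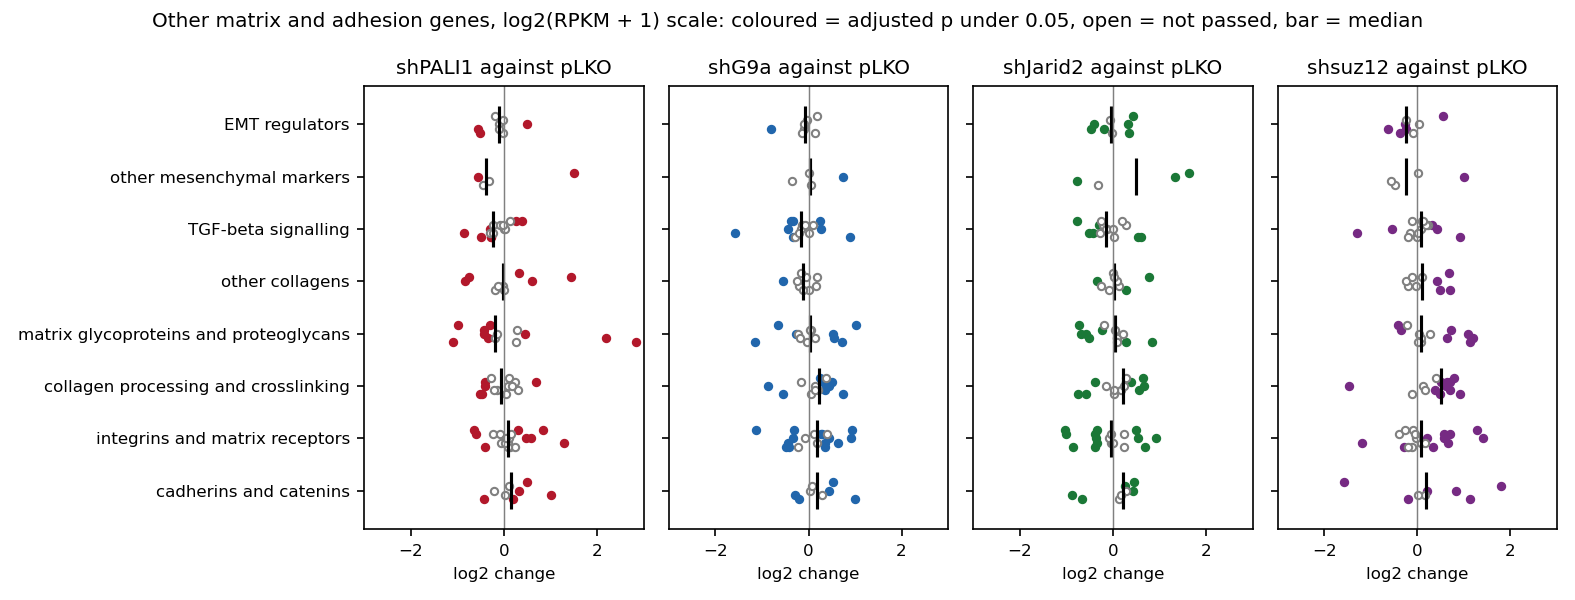
Change against pLKO (x axis, log2(RPKM + 1) scale) of each tested gene of 8 lists (rows), 1 panel per hairpin; coloured points passed at an adjusted p under 0.05 in limma, open points did not, and the bar is the list's median. Points lie on both sides of 0 in nearly every row, and the collagen processing row of shsuz12 has its median at 0.50.

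E-cadherin, encoded by CDH1 and the counterpart of CDH2 in epithelial cells, was at 86.4 ± 3.7 RPKM in shPALI1, 235 ± 9.4 in shG9a, 129 ± 16 in shJarid2 and 257 ± 8.4 in shsuz12, against 118 ± 3.7 in pLKO (SD, n = 3 each). It fell in shPALI1 (-0.44, adjusted p = 0.00076), a call lost with quantile normalization (limma, adjusted p = 0.0635), and rose in shG9a (0.99, adjusted p = 5.3e-07) and shsuz12 (1.12, limma, adjusted p = 1e-07). Of 15 cadherins and catenins 8 were tested, 4 higher and 1 lower in shPALI1, 3 and 2 in shG9a, 3 and 2 in shJarid2, and 4 and 2 in shsuz12. The catenin gene CTNNA1 fell in shsuz12 (20.5 ± 1.4 RPKM, against 63.0 ± 3.2 in pLKO; -1.58, limma, adjusted p = 1.5e-09). It rose in shPALI1 (0.49, adjusted p = 6.3e-05), shG9a (0.53, 2.7e-05) and shJarid2 (0.46, limma, adjusted p = 6e-05). In shsuz12, VIM and CDH1 were both higher than in pLKO.

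Other mesenchymal markers were mostly too low, with 4 of 13 tested. TAGLN, which encodes the actin-binding protein transgelin, fell in shPALI1 (1.5 ± 0.21 RPKM; -0.55, adjusted p = 0.00056) and rose in shG9a (5.14 ± 0.29; 0.75, adjusted p = 4e-05), shJarid2 (8.26 ± 0.72; 1.34, adjusted p = 1e-07) and shsuz12 (6.36 ± 0.38; 1.01, limma, adjusted p = 1.5e-06), against 2.67 ± 0.48 in pLKO. TNFRSF12A, a receptor of the TNF family, rose in shPALI1 (31.3 ± 4.9 RPKM; 1.51, adjusted p = 8.7e-07) and shJarid2 (34.5 ± 6.0; 1.64, limma, adjusted p = 2.3e-07), against 10.3 ± 0.62 in pLKO, and did not pass in shG9a (0.01, adjusted p = 0.97) or shsuz12 (0.01, 0.96). Among intermediate filament genes other than VIM, 7 of 15 were tested, 0 higher and 3 lower in shPALI1, 2 and 2 in shG9a, 3 and 2 in shJarid2, and 2 and 4 in shsuz12. KRT19, an epithelial keratin, fell in shPALI1 (0.238 ± 0.25 RPKM; -1.60, adjusted p = 2.1e-06) and rose in shG9a (7.67 ± 1.0; 1.22, 2.5e-05), shJarid2 (21.9 ± 3.1; 2.62, 1.3e-08) and shsuz12 (5.73 ± 1.1; 0.85, limma, adjusted p = 0.00037), against 2.71 ± 0.38 in pLKO. KRT19 and VIM thus moved in opposite directions in shPALI1 and in the same direction in shsuz12. The shared direction in shsuz12 did not extend to KRT8 and KRT18, the more abundant keratin genes, at 64.3 RPKM or more. In shsuz12 KRT18 fell (-0.35, limma, adjusted p = 0.0059) and KRT8 did not pass (-0.03, adjusted p = 0.83). In shPALI1 KRT18 fell (-0.30, limma, adjusted p = 0.018), as KRT19 did, and KRT8 did not pass (-0.15, adjusted p = 0.31). Both rose in shJarid2, KRT8 by 0.94 (adjusted p = 1e-05) and KRT18 by 0.80 (limma, adjusted p = 7e-06). KRT8 also rose in shG9a (0.44, adjusted p = 0.0058), where KRT18 did not pass (0.22, limma, adjusted p = 0.075).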

How the data were processed

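Per the labels' protocols, a NEBNext Ultra kit turned total RNA into RNA-seq libraries, and reads were aligned with STAR to hg38, per the submitters' processing notes. The counter, gene annotation and strand setting were not given in the sources used here. A single table of RPKM values with 15 library columns was deposited by the authors. Of 26475 rows, 32 had no values, and 28 names had been turned into dates.

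Groups came from the sample titles. Depth, gene-model lengths and whole reads were recovered from the steps of the RPKM values; 12712 of 12715 filtered genes (99.98%) gave whole reads within 0.01 reads. limma 3.58.1 in R 4.3.3 was fitted with a mean-variance trend to log2(RPKM + 1), a pseudocount of 1, in 1 model over 15 libraries, two-sided. The procedure was also run on simulated data with independent normal noise, which cannot show how calls depend on scaling. Tables and figures were made in Python 3.11.15. Values per group are mean ± SD over 3 libraries; limits from a count of 0 use 3 reads.

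Members, lists and tests were chosen with earlier results of these data known. Named were all members, the called gene with the largest rise and fall per list and comparison with pLKO, and the 3 tested genes of mean RPKM at least 2 most correlated with each member called in at least 2 of those comparisons; for most genes so named, the other groups are given too. Some genes that the rule or the marker list names are not reported here. KDR and LUM were named from the marker lists after their values were seen. Results of ESRP1, GRHL2, OVOL2 and KRT18 are given outside the rule, also after they were seen. As alternatives, the pseudocount was set to 0.1 or 0.5, the filter was dropped or replaced by a mean of 3 RPKM or more, and values were rescaled by median ratios, TPM or quantiles. The 6 libraries of a comparison were also fitted alone, the replicate number was added as a block, and each library was left out. limma-voom on the recovered reads was added after seeing the data. Gene positions come from GENCODE v29 on GRCh38.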

Additional observations from a re-analysis of the deposited data

How the results depend on the processing

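The 60 results for single genes (6 genes in 10 comparisons) were recomputed under 930 alternatives, of which 876 kept direction and call, 32 lost a call, 16 gained one and 6 turned the sign of a change that passed in neither fit; 46 of the 60 results changed under none. The 6 were THBS1 in shPALI1 against pLKO without pLKO replicate 1 or 3 (-0.01 each) or shPALI1 replicate 2 (-0.07), VIM in shJarid2 against pLKO with quantile normalization (0.01), FN1 in shJarid2 against pLKO without shJarid2 replicate 3 (0.11), and COL3A1 in shG9a against shJarid2 without shJarid2 replicate 1 (0.02); the cause was not tested. Over all 6 libraries left out in turn, these changes lay between -0.07 and 0.09 for THBS1, -0.29 and 0.11 for FN1, and -0.11 and 0.02 for COL3A1.

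With the filter set to a mean of 3 RPKM or more, only FN1, THBS1 and COL1A1 entered, and the genes called were 1 (shPALI1 against pLKO), 2 (shG9a and shsuz12 against pLKO), 3 (shPALI1 against shG9a), 2 (shPALI1 against shJarid2), 2 (shPALI1 against shsuz12), 2 (shG9a against shJarid2), 3 (shG9a against shsuz12) and 3 (shsuz12 against shJarid2). In shJarid2 against pLKO, THBS1 and COL1A1 kept their calls with this filter and FN1 again did not pass. For shG9a against shsuz12, leaving out 1 library gave 3 to 4 called genes, with 3 without shG9a replicate 3, shsuz12 replicate 1 or shsuz12 replicate 2. With a replicate block the counts were 4, 4, 3 and 4 against pLKO, as without it, and between hairpins they differed for shPALI1 against shsuz12 (5 in place of 4) and shG9a against shJarid2 (3 in place of 4). Shares of all genes called were not worked out with this filter, the block or a library left out. The counts under these alternatives are therefore only a description. Whether equal replicate numbers pair the libraries is not known. Same-numbered libraries correlated between -0.271 and 0.301 in their deviations from the group means, 7 of 30 over 0.1. In 1 of 10 pairs of groups, shG9a with shsuz12, each library was closest to its own number. Deviations from means of 3 libraries cannot decide the question. VIM, TWIST1, SPARC and COL3A1 are limited by depth, at 4 to 165 reads per library, and SNAI2 is too, at 3 to 19. Results of SNAI2 and SPARC from the fit with no filter were not recomputed under the other alternatives.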

Other observations

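COL3A1 and COL5A2 are neighbours on chromosome 2 that point at each other, with COL5A2 at chr2:189031896-189225312 on the minus strand and 19149 bases between the genes. Both were highest in shPALI1 and both were above pLKO in shJarid2. In shG9a COL5A2 was at 0.845 ± 0.12 RPKM, against 0.913 ± 0.14 in pLKO (log2 change -0.05, limma, adjusted p = 0.69), where COL3A1 was higher. In shsuz12 COL5A2 was at 1.05 ± 0.049 RPKM (0.10, limma, adjusted p = 0.40), where COL3A1 was at 0.133 ± 0.038 RPKM. CDH7, a type II cadherin, had 2.63 ± 0.20 RPKM in shsuz12, against 0.0486 ± 0.043 in pLKO, while CDH2 stayed near 0 in both. CDH7 was at most at 0.385 RPKM outside shsuz12 and entered the test only through that group, so the level is a description.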
